A study of Homo sapiens with 6 samples.

Results

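The 10 genes described here encode enzymes of glycolysis and of its control: the hexokinases HK1 and HK2, the fructose 2,6-bisphosphate enzyme PFKFB3, the phosphofructokinases PFKP and PFKL, and the later enzymes ALDOA, PGK1, ENO1, PKM and LDHA. They were taken by name from the glycolytic enzyme genes that have listed transcripts. Genes of any kind with listed transcripts number 11387. In every listed transcript at least one group mean was 0.5 FPKM or more, and the choice was made with earlier results of these data known. HK1, HK2, PFKFB3, PFKP and PFKL are called the early-step genes, and ALDOA, PGK1, ENO1, PKM and LDHA the later-step genes. RNA was sequenced from 92.1 cells, an established human ocular melanoma line, in 3 libraries with ALKBH3 knocked down (shALKBH3, the usual prefix for a short hairpin RNA) and 3 control libraries (NC, labelled as wild type). All 6 were grown in serum-containing medium. The labels do not say whether NC cells carry a control hairpin, whether the knockdown line is a clone, or whether the 3 libraries of a group came from separate cultures. The p-values therefore measure the spread between these libraries, which may be technical.

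Glycolysis turns glucose into pyruvate, and lactate dehydrogenase turns pyruvate into lactate. Hexokinase traps glucose in the cell, and phosphofructokinase commits it to the pathway. PFKFB enzymes make fructose 2,6-bisphosphate, the strongest allosteric activator of phosphofructokinase. Cultured tumour cells commonly run the pathway to lactate even with oxygen present, and many of its genes are known targets of the hypoxia-inducible factor HIF-1.

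ALKBH3, a demethylase of alkylated DNA and RNA and the gene that was knocked down, was at 3.29, 3.60 and 4.24 FPKM in shALKBH3 replicates 1, 2 and 3, against 10.5, 10.6 and 9.19 FPKM in NC replicates 1, 2 and 3. Neither group reached into the other, and ALKBH3 fell (-1.24 on the log2 scale, SE 0.118, limma adjusted p = 0.0079). The adjusted p was 0.051 without NC replicate 1 and 0.063 among genes represented by their most abundant transcript. FPKM are fragments per kilobase of transcript and per 1000000 mapped fragments, here summed over the listed transcripts of a gene. Listed FPKM summed to between 326875 and 333987 in shALKBH3 libraries and to between 340950 and 361268 in NC libraries, with no overlap between the groups. Sequencing depth is unknown. Of 10 melanocyte-lineage markers, only MITF and GPR143 have a row in the tables used here. Their summed level was 21.8 to 25.7 FPKM in shALKBH3 and 17.7 to 21.2 FPKM in NC libraries. The other 8, PMEL and MLANA among them, have no row, which gives no level for them. Of the 18 fibroblast, epithelial, immune and endothelial markers 7 have a row. The fibroblast sum was 23.8 to 29.1 FPKM in shALKBH3 and 23.2 to 34.4 FPKM in NC libraries, and the epithelial sum 457.9 to 578 FPKM in shALKBH3 and 429.9 to 514 FPKM in NC libraries. CD68, the sole immune marker with a row, was at 33.8 to 37.4 FPKM in shALKBH3 and 14.7 to 18.9 FPKM in NC libraries and rose (log2 change 1.10, limma adjusted p = 0.010). Its part in the results below was not tested.

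HK2 and PFKFB3 rose in the knockdown libraries, and the other 8 genes did not pass the test. The test was limma on log2(FPKM + 1) over 10475 genes, with a Benjamini-Hochberg adjusted p under 0.05 as threshold. Higher calls were made for 2 of the 10 genes, against 134 of all genes tested (1.28%). Lower calls were made for 0 of the 10, against 50 of all (0.477%), so that 1.76% of all genes were called. After rescaling each library to a sum of 1000000 FPKM, 153 genes were higher and 23 lower, the median log2 difference of all genes was 0.079 in place of -0.0096, and HK2 (0.65) and PFKFB3 (1.05) passed. With any one library left out, 39 to 87 genes were higher, and 0 or 1 of the 10. With the most abundant transcript per gene 80 genes were higher, and 0 of the 10. Both called genes belong to the 5 early-step genes. None of the 5 later-step genes passed in limma, and 1 of them, PGK1, had an unadjusted p under 0.05. In 5 of the 10 genes all shALKBH3 libraries lay above all NC libraries, which held for 12.9% of all genes tested. For PFKFB3 and PFKP this separation depends on PFKFB3-216 and PFKP-204. These transcripts reached a mean of 0.5 FPKM only in the shALKBH3 group. No member lay wholly below, and 24.9% of all genes were separated in either direction. In bulk RNA, fewer cells that express a gene and less RNA per cell cannot be told apart.

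**Figure D1:**
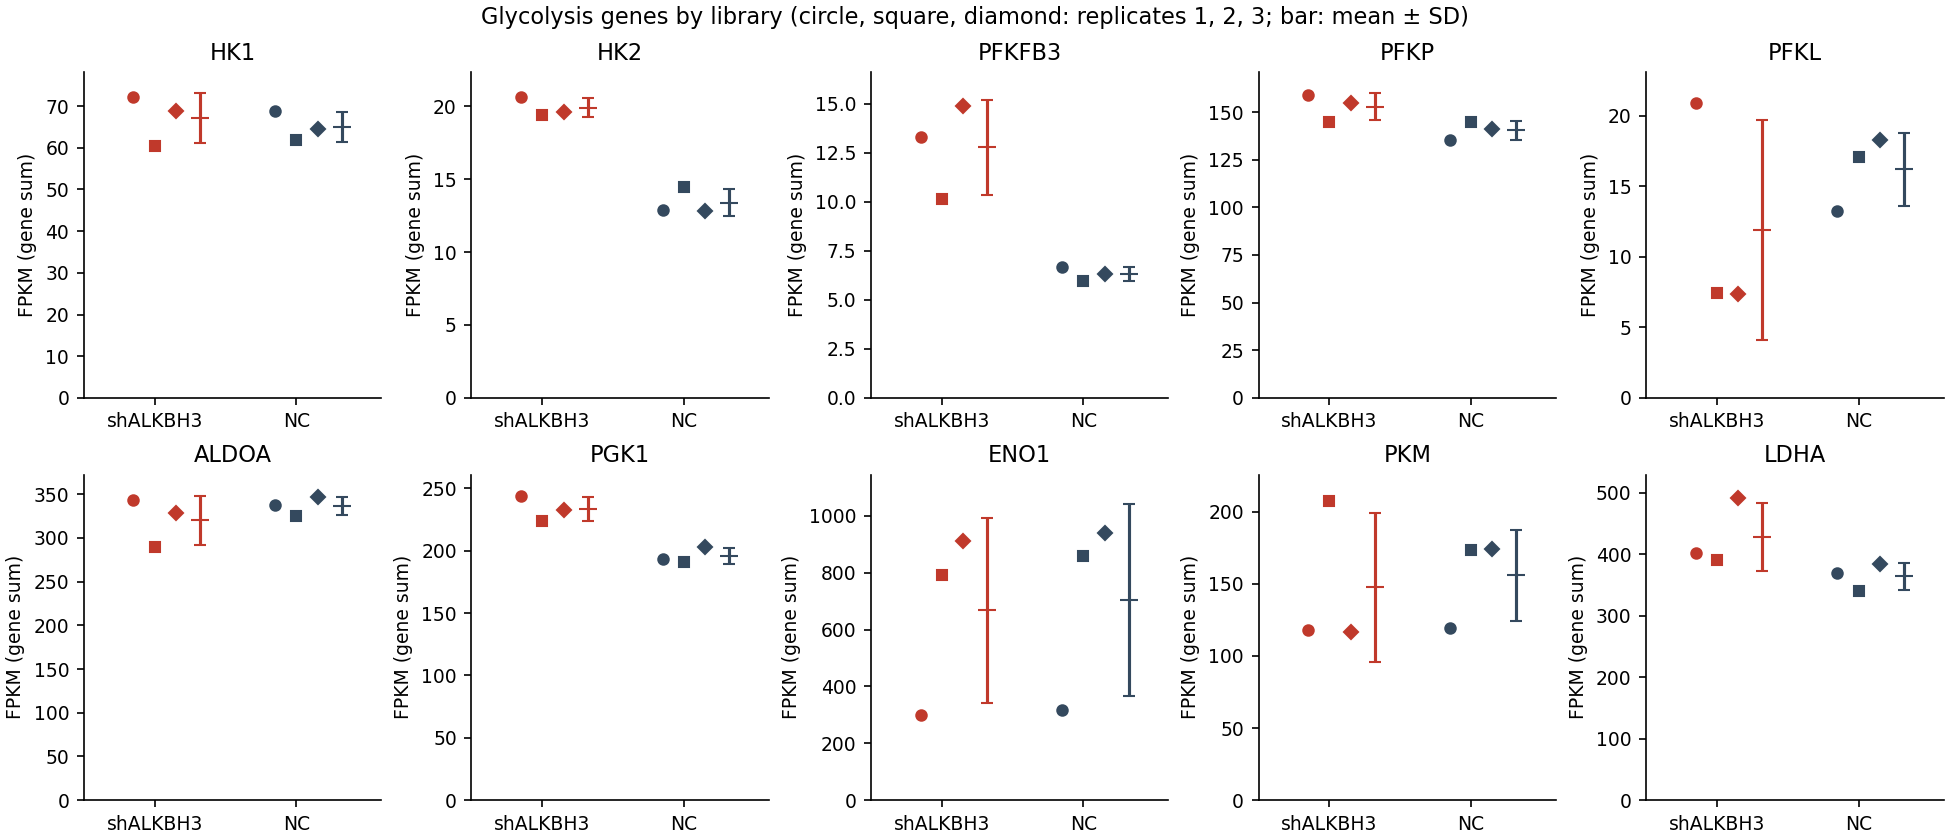
Gene-level FPKM of the 10 genes in each library, shALKBH3 left and NC right, with the mean and SD of 3 libraries beside the points. HK2, PFKFB3, PFKP, PGK1 and LDHA show no overlap between the groups, while ENO1 has 1 low library in each group (299.6 FPKM in shALKBH3 and 318 FPKM in NC).

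HK2 (ENSG00000159399, chromosome 2), the inducible hexokinase of insulin-sensitive tissue and many tumours, was at 20.6, 19.4 and 19.6 FPKM in shALKBH3 replicates 1, 2 and 3, against 12.9, 14.4 and 12.8 FPKM in NC replicates 1, 2 and 3. The 3 knockdown libraries lay close together and all above the controls. The mean was 19.9 ± 0.661 FPKM in shALKBH3 and 13.4 ± 0.907 FPKM in NC (SD, 3 libraries each), 48.6% higher. On the log2 scale the change was 0.54 (SE 0.085, limma adjusted p = 0.043). HK2 has 1 listed transcript of 3 annotated, so its level rests on that transcript. Without any single library, shALKBH3 or NC, the log2 change was 0.51 to 0.59 and the call was lost, with adjusted p-values from 0.065 (without NC replicate 2) to 0.17. Among genes represented by their most abundant transcript its adjusted p was 0.063.

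HK1 (ENSG00000156515, chromosome 10), the housekeeping hexokinase, was at 72.1, 60.5 and 68.7 FPKM in shALKBH3 replicates 1, 2 and 3, against 68.8, 61.9 and 64.4 FPKM in NC replicates 1, 2 and 3. The groups overlapped. The means differed by 0.043 on the log2 scale (95% interval -0.18 to 0.27, limma adjusted p = 0.83). HK1 stayed the more abundant hexokinase in every library.

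HK2 made up 22.3%, 24.3% and 22.2% of the summed HK1 and HK2 FPKM in shALKBH3 replicates 1, 2 and 3, against 15.8%, 18.9% and 16.6% in NC replicates 1, 2 and 3. The shares did not overlap, and the means were 22.9% in shALKBH3 and 17.1% in NC, 5.82 percentage points apart. The exact two-sided permutation test gave p = 0.1, the smallest that 3 libraries against 3 allow. Adjusted over the 5 isozyme shares compared, it was 0.125.

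PFKFB3 (ENSG00000170525, chromosome 10), an enzyme whose kinase activity far exceeds its phosphatase activity, was at 13.3, 10.1 and 14.9 FPKM in shALKBH3 replicates 1, 2 and 3, against 6.66, 5.97 and 6.31 FPKM in NC replicates 1, 2 and 3. All knockdown libraries lay above all controls, and they were wider apart than the controls. The mean was 12.8 ± 2.42 FPKM in shALKBH3 and 6.32 ± 0.347 FPKM in NC (SD, 3 libraries each), 102% higher. This was a change of 0.90 on the log2 scale (SE 0.149, limma adjusted p = 0.048). It passed without shALKBH3 replicate 2 (log2 1.04, adjusted p = 0.040). It did not pass without NC replicates 1, 2 or 3 (0.15, 0.11 and 0.15) or shALKBH3 replicates 1 or 3 (0.13 and 0.15). The adjusted p was 0.052 under quantile normalization and 0.0503 without the filter on low values.

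The 8 listed PFKFB3 transcripts did not keep their places between libraries. PFKFB3-203 held 11.4, 0.919 and 2.85 FPKM in shALKBH3 replicates 1, 2 and 3 and at most 1.54 FPKM in NC libraries. PFKFB3-205 held 0.411, 0 and 10.7 FPKM in shALKBH3 replicates 1, 2 and 3, against 0.434, 3.01 and 1.08 FPKM in NC replicates 1, 2 and 3. In shALKBH3 replicate 2 the highest transcript was PFKFB3-216, at 4.20 FPKM. Each knockdown library thus had another leading transcript, while the listed sum was higher in all 3. PFKFB3-216 was at 0 FPKM in shALKBH3 replicates 1 and 3. Its mean was 1.40 FPKM in shALKBH3 and 0.202 FPKM in NC, so the knockdown group alone brought it past 0.5 FPKM. Without it the shALKBH3 replicate 2 sum would not lie above the NC sums, and that fit was not run. PFKFB3-207 passed 0.5 FPKM in NC alone (0.531 FPKM, against 0.213 FPKM in shALKBH3). Of 19 annotated PFKFB3 transcripts 8 are listed. The most abundant transcript taken alone, PFKFB3-203, had a log2 difference of 1.24 and did not pass (limma adjusted p = 0.50 over genes represented by their most abundant transcript).

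The other PFKFB genes with listed transcripts are PFKFB2 and PFKFB4, which encode isoenzymes of PFKFB3. PFKFB4 was at 10.9 to 13.6 FPKM in shALKBH3 and 8.94 to 10.2 FPKM in NC libraries, with a log2 difference of 0.30 (limma adjusted p = 0.28). PFKFB2 was at 1.85 to 2.23 FPKM in shALKBH3 and 2.45 to 2.70 FPKM in NC libraries, a log2 difference of -0.20 (limma adjusted p = 0.41). PFKFB3 made up 45.7%, 44.2% and 53.3% of the 3 genes' summed FPKM in shALKBH3 replicates 1, 2 and 3, against 36.4%, 32.1% and 35.4% in NC replicates 1, 2 and 3. These shares did not overlap (exact permutation p = 0.1, adjusted 0.125), with means of 47.7% in shALKBH3 and 34.6% in NC. The share in shALKBH3 replicate 2 includes the 4.20 FPKM of PFKFB3-216, and without that transcript the shares would overlap.

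The bases upstream of HK2 and PFKFB3, the genes that rose, and of PGK1, the member with the next smallest adjusted p, are shown. Beside them is PKM, the sole member with no match in any window. Each line gives the 250 bases before a RefSeq transcript start (build GRCh38.p14), 5′ to 3′ on the gene's strand. Capitals mark ACGTG or GCGTG on either strand, the letters of the known core of the HIF-binding element. A CACGTG reads as a match on both strands and counts as 2 overlapping matches. For PFKFB3 both starts are given, and for HK2 the upstream of its pair of starts, which is the nearer to the listed transcript.
HK2, upstream start (chr2:74833877-74834126, + strand): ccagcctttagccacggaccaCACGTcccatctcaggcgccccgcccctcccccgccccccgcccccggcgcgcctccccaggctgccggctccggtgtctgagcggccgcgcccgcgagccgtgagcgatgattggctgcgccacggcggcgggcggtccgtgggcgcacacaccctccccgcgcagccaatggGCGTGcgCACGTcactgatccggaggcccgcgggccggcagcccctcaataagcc
PFKFB3, upstream start (chr10:6144671-6144920, + strand): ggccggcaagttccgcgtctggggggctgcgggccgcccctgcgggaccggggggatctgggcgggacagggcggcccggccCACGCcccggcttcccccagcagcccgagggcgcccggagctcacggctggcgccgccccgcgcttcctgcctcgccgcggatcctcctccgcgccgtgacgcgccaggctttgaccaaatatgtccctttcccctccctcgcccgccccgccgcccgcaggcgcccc
PFKFB3, downstream start (chr10:6202682-6202931, + strand): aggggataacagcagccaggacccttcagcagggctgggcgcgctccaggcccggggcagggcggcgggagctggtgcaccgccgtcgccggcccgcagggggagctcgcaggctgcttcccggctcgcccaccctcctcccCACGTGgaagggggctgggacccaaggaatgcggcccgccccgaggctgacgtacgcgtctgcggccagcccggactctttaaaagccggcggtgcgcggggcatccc
PGK1 (chrX:78103998-78104247, + strand): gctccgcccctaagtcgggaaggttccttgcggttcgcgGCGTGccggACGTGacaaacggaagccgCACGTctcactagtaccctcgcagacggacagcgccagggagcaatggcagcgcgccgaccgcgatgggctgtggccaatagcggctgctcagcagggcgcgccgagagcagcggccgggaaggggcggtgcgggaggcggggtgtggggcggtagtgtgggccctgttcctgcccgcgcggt
PKM (chr15:72231191-72231440, - strand): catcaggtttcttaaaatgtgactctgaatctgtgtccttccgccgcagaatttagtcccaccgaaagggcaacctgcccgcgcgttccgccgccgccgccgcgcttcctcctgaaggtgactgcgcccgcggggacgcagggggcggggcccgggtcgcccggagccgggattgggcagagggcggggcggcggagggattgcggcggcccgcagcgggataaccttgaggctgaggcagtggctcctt
The HK2 window shown held 3 matches and that of its downstream start, not shown, 6. The PFKFB3 windows held 1 and 2, the PGK1 window 3 and the PKM window 0. RefSeq gives 24 windows for the 10 genes, and 15 of them held a match. Of the 10 genes, 9 had a match in some window, so a match did not set the called genes apart. Among the genes not called, the LDHA windows held 5 and 1, the richest PFKP window 3, the ENO1 window 2 and most HK1 windows 0. A match was held by 43.2% of all 35116 RefSeq windows of this length. The GC content was 76.8% in the HK2 window shown, 79.2% and 74.4% in the PFKFB3 windows, 71.2% in the PGK1 window and 68.4% in the PKM window, against a median of 58% over all windows. A match of 5 letters is a description of these windows and not a binding site.

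PFKP (ENSG00000067057, chromosome 10), the platelet-type phosphofructokinase, was the main isozyme of its step. It was at 159, 144.8 and 155 FPKM in shALKBH3 replicates 1, 2 and 3, against 135, 144.7 and 141 FPKM in NC replicates 1, 2 and 3. The lowest knockdown library and the highest control were nearly equal. The sum in shALKBH3 replicate 3 includes 11.3 FPKM of PFKP-204, which was at no more than 0.05 FPKM in every other library. Without that transcript the groups would overlap. The main transcript PFKP-203 was at 128.4, 128.1 and 102.5 FPKM in shALKBH3 replicates 1, 2 and 3, against 109, 133 and 114 FPKM in NC replicates 1, 2 and 3. On the log2 scale the difference was 0.12 (95% interval -0.045 to 0.29, limma adjusted p = 0.41), with 0.21 after rescaling, 0.22 after the length and GC correction and 0.0080 with the most abundant transcript.

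PFKL (ENSG00000141959, chromosome 21), the liver-type isozyme, was at 20.9, 7.45 and 7.34 FPKM in shALKBH3 replicates 1, 2 and 3, against 13.2, 17.1 and 18.2 FPKM in NC replicates 1, 2 and 3. Replicate 1 of the knockdown lay above all controls, and the other two lay below them. The difference on the log2 scale was -0.56 (95% interval -1.51 to 0.39, limma adjusted p = 0.50). Without shALKBH3 replicate 1 it was -1.02 (adjusted p = 0.080). PFKL has 1 listed transcript of 12 annotated.

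PFKM, the muscle-type isozyme, was at 13.3 to 19.2 FPKM in shALKBH3 and 14.3 to 16.9 FPKM in NC libraries (log2 difference -0.021, limma adjusted p = 0.95). PFKP made up 82.3%, 84.5% and 87.3% of the phosphofructokinase FPKM in shALKBH3 replicates 1, 2 and 3, against 81.9%, 82.2% and 80.1% in NC replicates 1, 2 and 3. The highest control share and the lowest knockdown share were close, and the exact permutation p was 0.1 (adjusted 0.125).

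**Figure D2:**
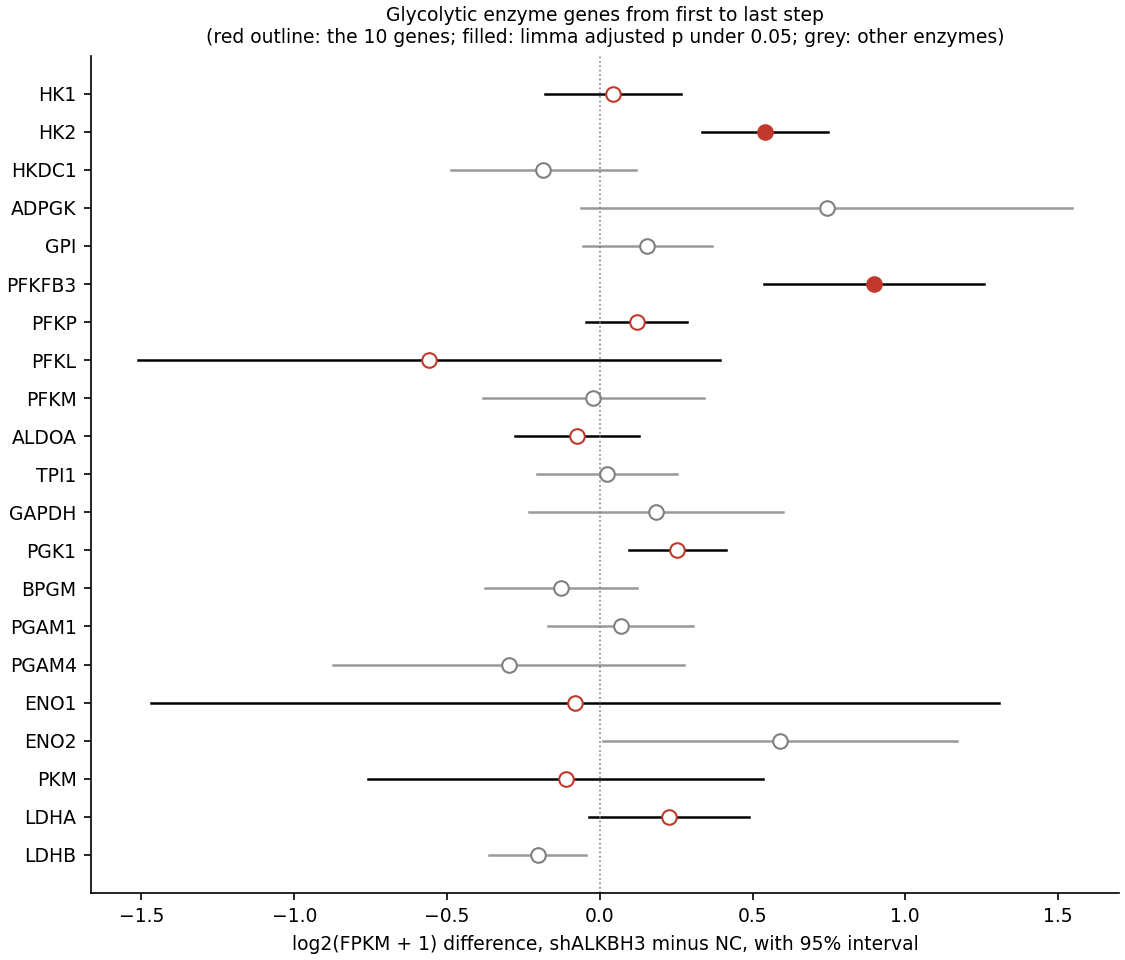
Difference in log2(FPKM + 1), shALKBH3 minus NC, with limma's 95% interval for each tested glycolytic enzyme gene and PFKFB3, ordered by step from top to bottom. The filled points are HK2 (0.54) and PFKFB3 (0.90), and the widest interval among the 10 genes is that of ENO1 (-1.47 to 1.31).

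Among the later-step genes, PGK1 and LDHA had shALKBH3 libraries wholly above the NC libraries without passing the test. PGK1 (ENSG00000102144, chromosome X) encodes phosphoglycerate kinase, the first ATP-forming enzyme of the pathway. It was at 244, 224 and 233 FPKM in shALKBH3 replicates 1, 2 and 3, against 194, 191 and 203 FPKM in NC replicates 1, 2 and 3. The mean was 19.3% higher, and the log2 difference was 0.25 (95% interval 0.10 to 0.41, limma adjusted p = 0.14). Under quantile normalization it passed (log2 0.33, adjusted p = 0.037). No other alternative moved its adjusted p under 0.05, and after the length and GC correction the difference was 0.15.

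LDHA (ENSG00000134333, chromosome 11) encodes the subunit of lactate dehydrogenase that favours lactate formation. It was at 403, 391 and 492 FPKM in shALKBH3 replicates 1, 2 and 3, against 369.5, 341 and 384 FPKM in NC replicates 1, 2 and 3. Replicate 3 of the knockdown was the highest. On the log2 scale the difference was 0.23 (95% interval -0.035 to 0.49, limma adjusted p = 0.34), and without replicate 3 of the knockdown it was 0.12. Its main transcript LDHA-203 was at 325, 316 and 373 FPKM in shALKBH3 replicates 1, 2 and 3, against 310.3, 277 and 327 FPKM in NC replicates 1, 2 and 3, and these overlapped. LDHA-204, the next, did not overlap, at 48.2, 47.7 and 74.5 FPKM in shALKBH3 replicates 1, 2 and 3, against 36.2, 40.3 and 35.8 FPKM in NC replicates 1, 2 and 3 (log2 difference 0.56, limma adjusted p = 0.47 over transcripts).

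LDHB, the partner subunit, lay on the other side. It was at 453, 500.1 and 459 FPKM in shALKBH3 replicates 1, 2 and 3, against 540.2, 532 and 552 FPKM in NC replicates 1, 2 and 3, and all knockdown libraries were below all controls. The log2 difference was -0.20 (95% interval -0.36 to -0.04, limma adjusted p = 0.21), and it was -0.11 after rescaling, -0.13 after the length and GC correction and -0.052 under quantile normalization. LDHA made up 47.1%, 43.9% and 51.8% of the summed LDHA and LDHB FPKM in shALKBH3 replicates 1, 2 and 3, against 40.6%, 39.0% and 41.0% in NC replicates 1, 2 and 3. These shares did not overlap (exact permutation p = 0.1, adjusted 0.125), with means of 47.6% in shALKBH3 and 40.2% in NC. The sum of both subunits overlapped between the groups, at 855 to 951 FPKM in shALKBH3 and 873 to 935 FPKM in NC libraries.

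**Figure D3:**
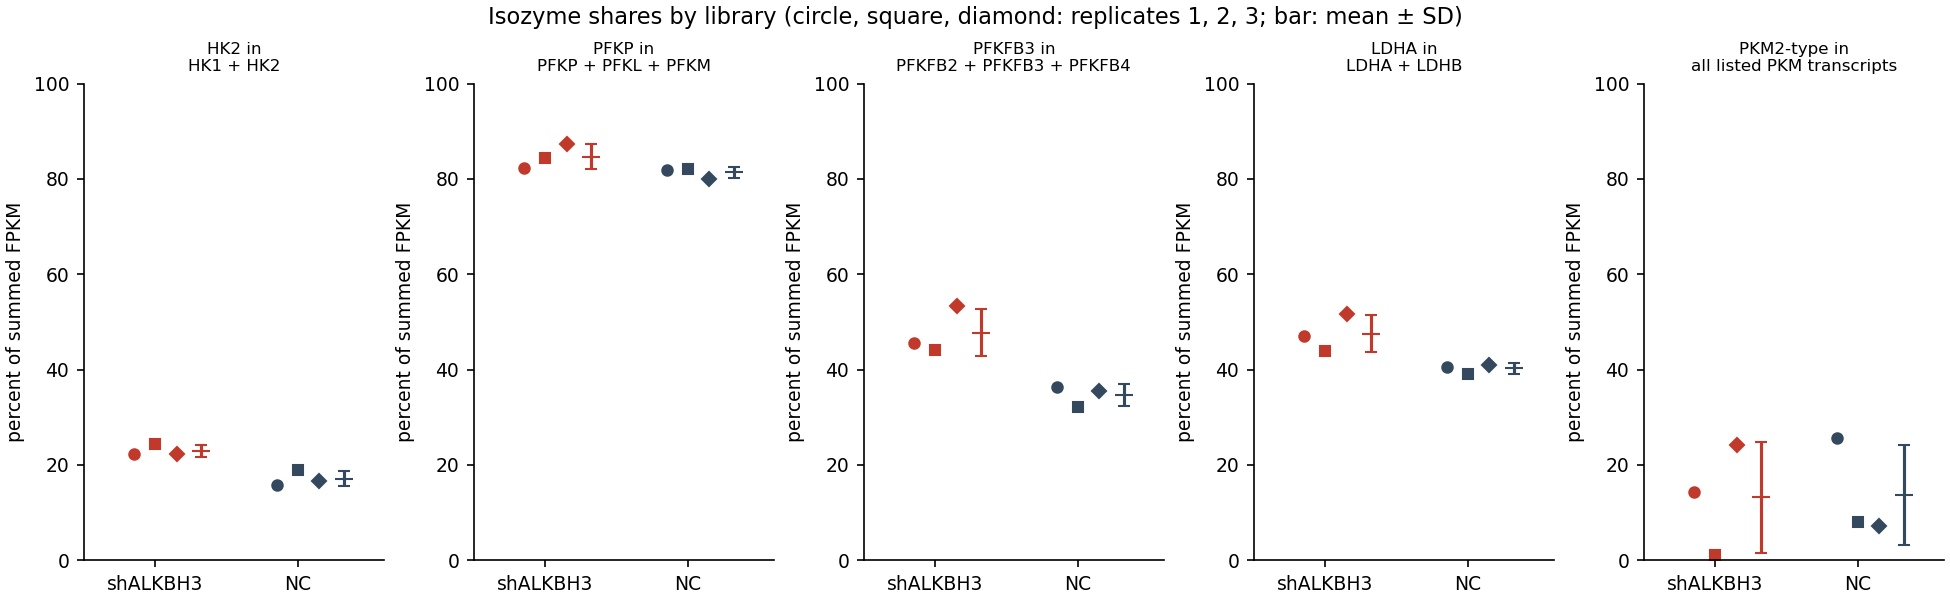
Share of one isozyme in the summed FPKM of its step (percent), per library, shALKBH3 left and NC right, with the mean and SD of 3 libraries. The HK2, PFKP, PFKFB3 and LDHA shares do not overlap between the groups (each exact permutation p = 0.1, the smallest possible), and the PKM2-type share does overlap (p = 0.9).

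ALDOA (ENSG00000149925, chromosome 16), the main aldolase of most tissues, was at 343, 289 and 329 FPKM in shALKBH3 replicates 1, 2 and 3, against 338, 326 and 347 FPKM in NC replicates 1, 2 and 3. The groups overlapped. The difference was -0.075 on the log2 scale (95% interval -0.28 to 0.13, limma adjusted p = 0.67) and 0.019 after rescaling to equal sums. Its 12 listed transcripts were led by ALDOA-218, at 86.6 to 109 FPKM in shALKBH3 and 85.2 to 97.1 FPKM in NC libraries.

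ENO1 (ENSG00000074800, chromosome 1), the widely expressed enolase, had the highest mean level of the 10 genes and one of the widest spreads. It was at 299.6, 792 and 912 FPKM in shALKBH3 replicates 1, 2 and 3, against 318, 858 and 941 FPKM in NC replicates 1, 2 and 3. Replicate 1 of each group stood far below the other libraries. The log2 difference was -0.082 (95% interval -1.47 to 1.31, limma adjusted p = 0.95), an interval wide enough to hold a large difference in either direction, and 0.012 after rescaling. Without 1 library it ran from -0.58 (without NC replicate 1) to 0.42 (without shALKBH3 replicate 1). ENO1-207, a short transcript, was at 42.3 FPKM in shALKBH3 replicate 1 and 19.3 FPKM in NC replicate 1, and at no more than 0.114 FPKM in the other 4 libraries. Of 17 annotated ENO1 transcripts 3 are listed, so fragments given to others are not in these sums.

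A split by replicate number was also seen in HK1. HK1-201 held 17.1 FPKM in shALKBH3 replicate 2 and 17.7 FPKM in NC replicate 2, and no more than 1.16 FPKM in the other 4 libraries. HK1-202 was lower in the same libraries, at 43.4 FPKM in shALKBH3 replicate 2 and 44.2 FPKM in NC replicate 2, and the HK1 sum was lowest in replicate 2 of both groups.

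PKM (ENSG00000067225, chromosome 15), which encodes pyruvate kinase M1 or M2 by the choice between a pair of exons, was at 118, 207 and 117 FPKM in shALKBH3 replicates 1, 2 and 3, against 119.7, 174 and 174 FPKM in NC replicates 1, 2 and 3. The groups overlapped, and the lower levels were in libraries of both. The log2 difference was -0.11 (95% interval -0.76 to 0.54, limma adjusted p = 0.85), and it ran from -0.38 without shALKBH3 replicate 2 to 0.028 without shALKBH3 replicate 3. PKM-205, the transcript with the highest mean, was at 81.6, 54.6 and 30.9 FPKM in shALKBH3 replicates 1, 2 and 3, against 42.6, 149 and 153 FPKM in NC replicates 1, 2 and 3. PKM-220 was at 146 FPKM in shALKBH3 replicate 2 and at no more than 5.89 FPKM elsewhere.

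In most tumour cells M2 is known as the prevailing form. Listed transcripts with the M1 exon came to 98.3, 203 and 83.5 FPKM in shALKBH3 replicates 1, 2 and 3, against 85.0, 155 and 158 FPKM in NC replicates 1, 2 and 3. Listed transcripts with the M2 exon made up 14.2%, 1.04% and 24.3% of PKM FPKM in shALKBH3 replicates 1, 2 and 3, against 25.7%, 8.10% and 7.21% in NC replicates 1, 2 and 3. The shares overlapped (exact permutation p = 0.9) and ranged widely within each group. The exon type was read from GENCODE release 29, where the known M2 and M1 RefSeq records differ by that exon. In every library the M1-type transcripts were the larger part of the listed ones. Of 25 annotated PKM transcripts 10 are listed, so fragments given to others are not in these shares. Which form prevails in these cells cannot be read from them. These shares rest on FPKM of single transcripts, which for PFKFB3 and HK1 too varied more between libraries than the gene sums.

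**Figure D4:**
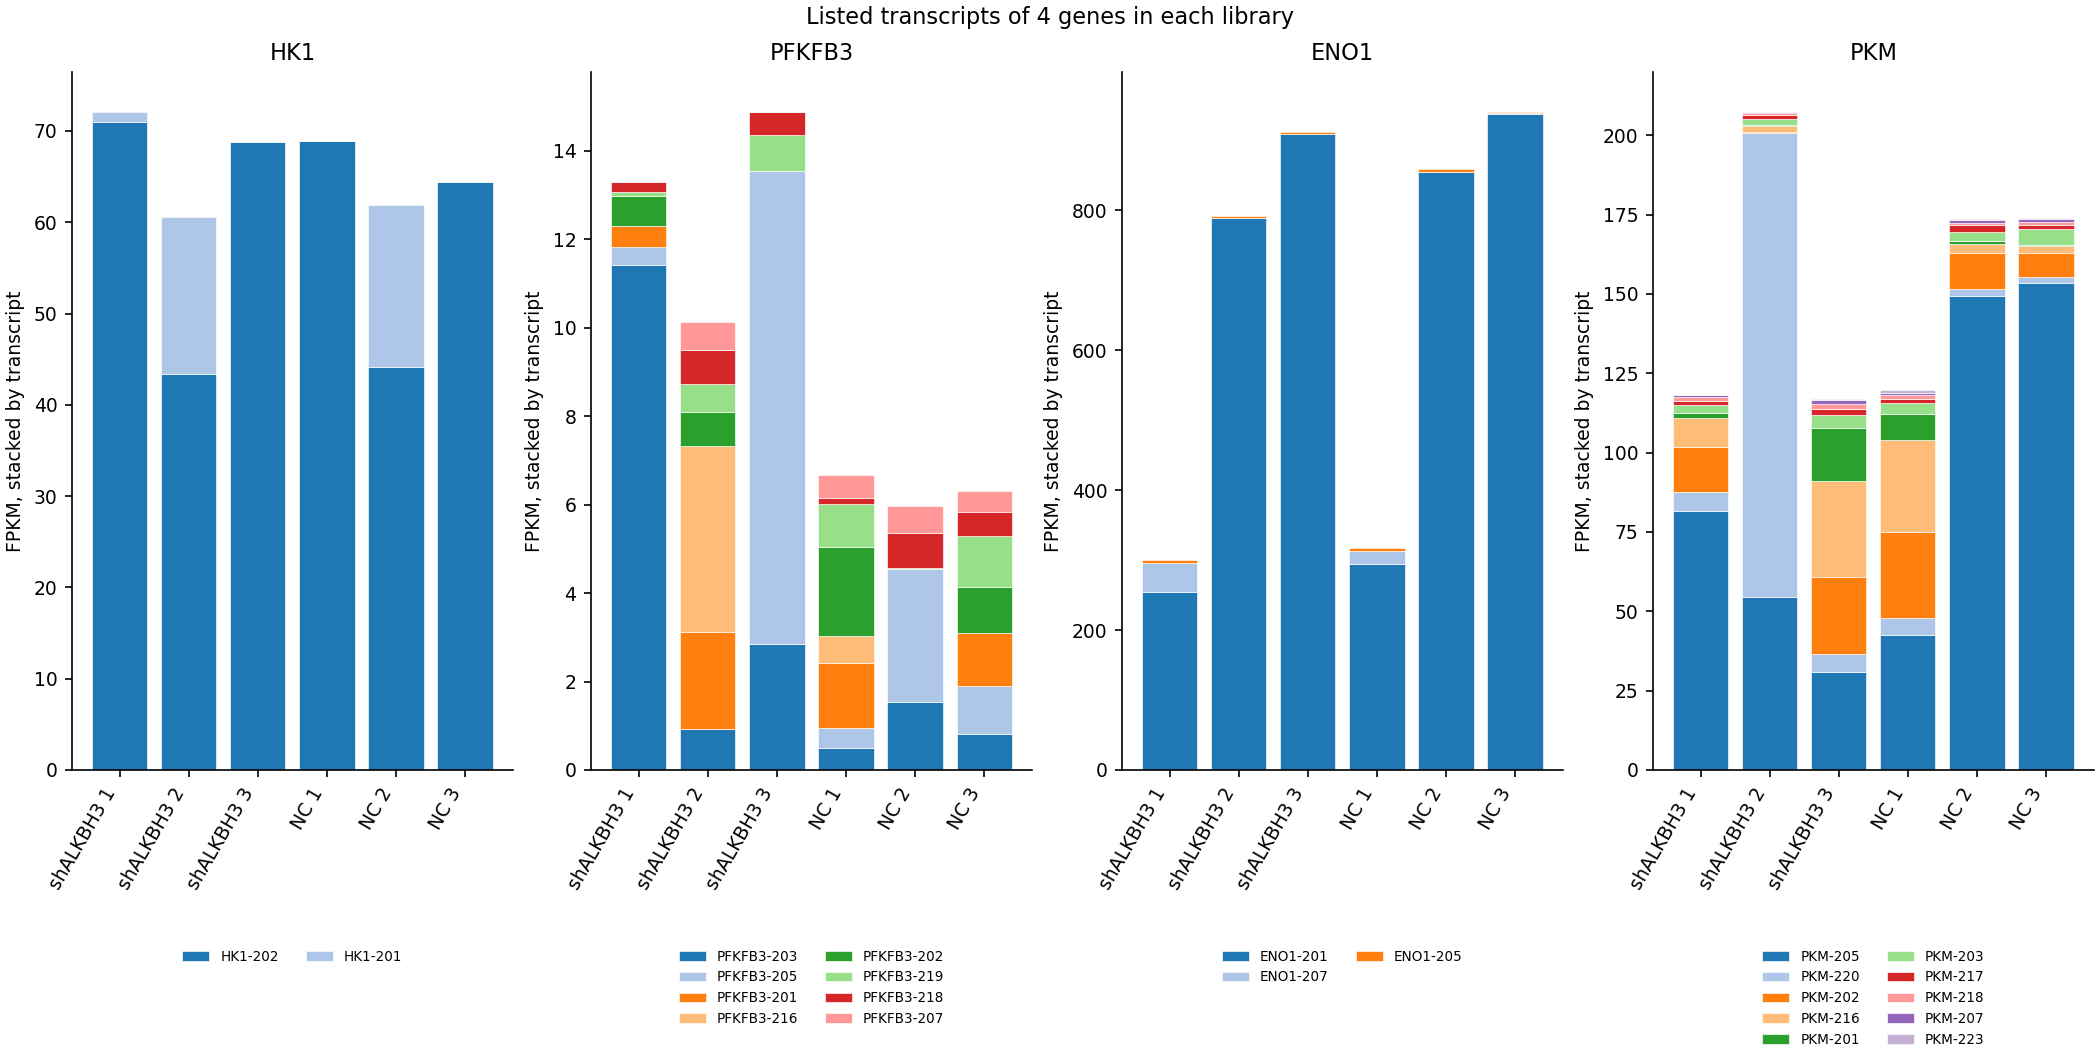
Stacked FPKM of the listed transcripts of HK1, PFKFB3, ENO1 and PKM in each library, shALKBH3 left of NC, with 1 colour per transcript within a panel. The leading PFKFB3 transcript differs between the 3 knockdown libraries, ENO1 is low in replicate 1 of both groups, and PKM-220 leads in shALKBH3 replicate 2 (146 FPKM).

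Tested singly, 0 of 41 member transcripts passed in limma, against 0.472% of the 19698 transcripts tested, and at an unadjusted p under 0.05 4 were higher and 0 lower, where 4.99% of all transcripts tested were higher and 4.75% lower. The 13 other listed transcripts of the 10 genes had a mean under 1 FPKM and were not tested. The 54 listed transcripts are part of 158 annotated for these genes. Pseudogenes named after the gene are annotated for 6 of the 10 genes (HK2, ALDOA, PGK1, ENO1, PKM and LDHA), 19 in all, and none has a row. Whether reads were shared with them was not tested, and the levels of these 6 genes are given with that limit.

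By level, FPKM being per length, the order in shALKBH3 was ENO1, LDHA, ALDOA, PGK1, PFKP, PKM, HK1, HK2, PFKFB3 and PFKL, with means from 668 FPKM for ENO1 to 11.9 FPKM for PFKL. In NC it was ENO1, LDHA, ALDOA, PGK1, PKM, PFKP, HK1, PFKL, HK2 and PFKFB3, with means from 705 FPKM for ENO1 to 6.32 FPKM for PFKFB3. Neighbours whose libraries overlapped were ENO1 with LDHA, PFKP with PKM and PFKFB3 with PFKL in shALKBH3. In NC they were ENO1 with LDHA, LDHA with ALDOA, PKM with PFKP and PFKL with HK2.

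Both calls were among the regulated early steps, and the difference between early and later steps was not tested. Of the 5 early-step genes 2 rose and none fell, and their median log2 difference was 0.12. The 5 later-step genes gave no call in either direction, and their median was -0.075. The median over all genes tested was -0.0096. The later-step median changed sign when NC replicate 2 (0.13), NC replicate 3 (0.20), shALKBH3 replicate 1 (0.22) or shALKBH3 replicate 3 (0.028) was left out, so the 2 groups of genes cannot be ranked by it. The early-step median stayed between 0.093 and 0.16 with any one library left out. With the most abundant transcript per gene it was 0.037, below the later-step median of 0.052. After the length and GC correction the early-step median was 0.22.

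Summed over isozymes, most steps overlapped between the groups. Hexokinases, HKDC1 included, came to 95.3, 82.6 and 91.5 FPKM in shALKBH3 replicates 1, 2 and 3, against 85.1, 79.9 and 80.1 FPKM in NC replicates 1, 2 and 3. Phosphofructokinases came to 193, 171 and 177 FPKM in shALKBH3 replicates 1, 2 and 3, against 165, 176 and 177 FPKM in NC replicates 1, 2 and 3. Of the 11 steps, phosphoglycerate kinase (PGK1) alone had all knockdown libraries above all controls. In the enolase step ENO2, the neuronal enolase, was at 89.4, 71.8 and 91.8 FPKM in shALKBH3 replicates 1, 2 and 3, against 63.5, 38.1 and 70.0 FPKM in NC replicates 1, 2 and 3 (log2 difference 0.59, limma adjusted p = 0.29). ENO2 was singled out after its values were seen.

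**Figure D5:**
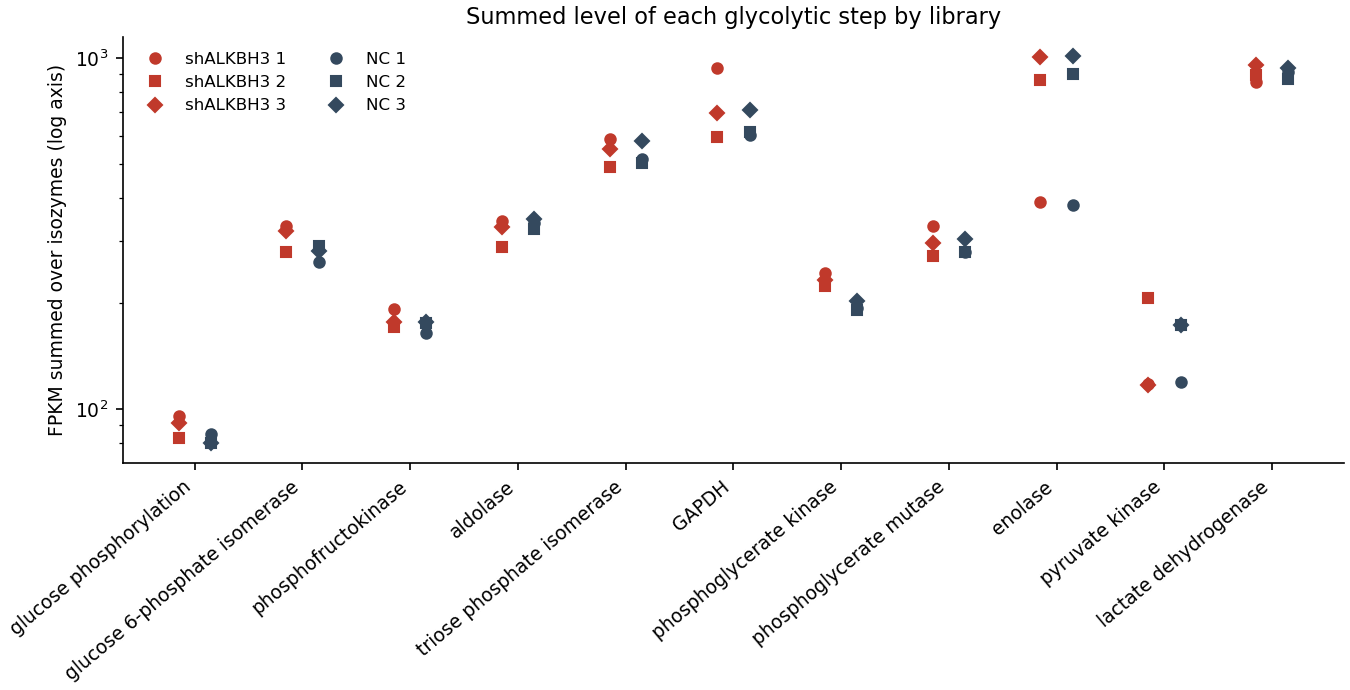
FPKM summed over the listed isozymes of each glycolytic step (log axis), from glucose phosphorylation on the left to lactate dehydrogenase on the right, with 1 point per library, shALKBH3 drawn left of NC. The groups overlap at every step but phosphoglycerate kinase, where shALKBH3 lies at 224 to 244 FPKM and NC at 191 to 203 FPKM.

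The rest of the pathway was read from 7 lists of 78 genes, 60 of them with a row and 57 tested. None passed in limma. At an unadjusted p under 0.05, 5 of the 57 were higher and 12 lower, where 8.98% of all genes were higher and 8.15% lower. In 5 of the 57 the shALKBH3 libraries lay wholly above and in 14 wholly below the NC libraries, which held for 12.9% and 12% of all genes tested. Their median log2 difference was -0.073.

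Among 11 tested glycolytic enzymes outside the 10 genes, 6 had a positive and 5 a negative log2 difference, with a median of 0.024. GAPDH, which makes 1,3-bisphosphoglycerate and was the highest of them, was at 933, 595 and 697 FPKM in shALKBH3 replicates 1, 2 and 3, against 605, 616 and 709 FPKM in NC replicates 1, 2 and 3 (log2 difference 0.18, limma adjusted p = 0.61). Replicate 1 of the knockdown stood above the rest, and without it the GAPDH difference was 0.0050. It was 0.33 without shALKBH3 replicate 2, under quantile normalization and after the length and GC correction. Among 9 tested transport genes 4 had a positive and 5 a negative log2 difference, with a median of -0.024. SLC2A12, a sugar transporter gene, was at 9.24 to 10.4 FPKM in shALKBH3 and 5.72 to 7.73 FPKM in NC libraries (log2 difference 0.50, limma adjusted p = 0.14). BSG, the chaperone of the lactate transporters, was at 197 to 306 FPKM in shALKBH3 and 225 to 328 FPKM in NC libraries (log2 difference -0.20, adjusted p = 0.65). Its difference ran from -0.39 (without shALKBH3 replicate 1) to 0.0093 (after the length and GC correction).

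Of the 5 tested genes of the list of fructose bisphosphate regulators and gluconeogenesis, PCK2, the mitochondrial phosphoenolpyruvate carboxykinase, had the smallest adjusted p. It was at 6.35 to 8.75 FPKM in shALKBH3 and 9.75 to 12.4 FPKM in NC libraries (log2 difference -0.55, limma adjusted p = 0.15). That list had a median of -0.20. Of 11 tested genes of the pyruvate dehydrogenase list, PDK1, which encodes a kinase that inactivates the complex, was at 12.6, 16.3 and 15.8 FPKM in shALKBH3 replicates 1, 2 and 3, against 10.6, 12.2 and 11.1 FPKM in NC replicates 1, 2 and 3. Its libraries did not overlap (log2 difference 0.37, limma adjusted p = 0.22, and 0.20 after the length and GC correction). PDP1, the opposing phosphatase, was at 44.9 to 51.1 FPKM in shALKBH3 and 20.2 to 60.8 FPKM in NC libraries (log2 difference 0.42, adjusted p = 0.58). Its difference was 0.021 without NC replicate 1, 0.79 without NC replicate 2 and -1.97 with its most abundant transcript alone. The median of the list was -0.0041.

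All 8 tested genes of the pentose phosphate pathway, which branches off after hexokinase and makes NADPH and ribose, had a negative log2 difference. Their median was -0.19, and none passed. RPE, a gene of this list, was at only -0.025, and 5376 of all 10475 genes tested were negative. After rescaling 7 of the 8 were negative, with a median of -0.098, and after the length and GC correction 6. With the most abundant transcript 7 were negative, and with a library left out 7 or 8. RPIA, ribose 5-phosphate isomerase, was at 5.40 to 6.01 FPKM in shALKBH3 and 7.36 to 8.18 FPKM in NC libraries (log2 difference -0.39, limma adjusted p = 0.12). TKT, transketolase, was at 116 to 162 FPKM in shALKBH3 and 171 to 197 FPKM in NC libraries (log2 difference -0.38, adjusted p = 0.24). In 3 of the 8 genes the knockdown libraries lay wholly below the controls, as did 12% of all genes tested.

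Of 7 tested HIF pathway regulators 4 had a positive and 3 a negative log2 difference, with a median of 0.0048. HIF1A, the oxygen-regulated subunit of HIF-1, was at 178, 207 and 205 FPKM in shALKBH3 replicates 1, 2 and 3, against 163, 198 and 133 FPKM in NC replicates 1, 2 and 3 (log2 difference 0.27, limma adjusted p = 0.41). The groups overlapped, and the HIF1A difference was 0.13 without NC replicate 3 and 0.42 without NC replicate 2. EGLN1, a prolyl hydroxylase that marks HIF subunits for destruction, was at 13.7 to 14.8 FPKM in shALKBH3 and 11.5 to 12.0 FPKM in NC libraries (log2 difference 0.25, adjusted p = 0.21, and 0.12 after the length and GC correction). Of 6 regulators of PKM splicing 1 had a positive and 5 a negative log2 difference, with a median of -0.12. The positive one was PTBP1, at 44.1 to 51.4 FPKM in shALKBH3 and 25.4 to 51.1 FPKM in NC libraries. Its groups overlapped (log2 difference 0.53, limma adjusted p = 0.37). HNRNPA1, which represses the M1 exon, was at 399.5 to 410.5 FPKM in shALKBH3 and 451 to 487 FPKM in NC libraries (log2 difference -0.21, limma adjusted p = 0.18), with a difference of -0.11 after rescaling and -0.037 under quantile normalization.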

How the data were processed

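RNA-seq libraries used random priming and dUTP second strands, per the labels' protocols. The authors deposited FPKM per transcript, per the file headers, in 1 table of 28900 transcripts per library. The submitters' processing notes name hg19, HTSeq 0.6.0 and DESeq2 without a role, and the tool that made the FPKM is not given in the sources used here. In every transcript the higher group mean is at least 0.5 FPKM, and values reach down to 1e-06, so whole reads could not be recovered and depth and counting intervals are unknown. The number of libraries limits the precision.

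Identifiers were matched without version to GENCODE release 29 (GRCh38), used for names, chromosomes, transcript length, GC content and exon type. Of 28900 transcripts 28796 matched (99.6%) and 104 were left out. FPKM were summed to 11387 genes, and the 10475 with a mean of at least 1 FPKM were tested with limma 3.58.1 in R 4.3.3 on log2(FPKM + 1), with an empirical Bayes variance trend, two-sided and with Benjamini-Hochberg adjustment. Fold changes are on that scale and understate the change of low genes. All 10 members passed the filter. Shares were tested with the exact permutation test of scipy 1.17.1. Tables and plots used Python 3.11.15, pandas 2.3.3, numpy 2.4.6 and matplotlib 3.10.9. Upstream sequences are from RefSeq (GRCh38.p14), for all 10 genes.

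The 10 genes, the lists and the test were chosen with earlier results of these data known. Named were the 10 genes, ALKBH3, every other list gene past the threshold, the gene with the smallest adjusted p and the one with the highest mean FPKM in each list, and the most abundant transcripts. Other genes and transcripts named were chosen after their values were seen. The fit had no replicate block. The script was checked on simulated data with known changes. Alternatives were another pseudocount, filter, scaling, a length and GC correction, the most abundant transcript, a replicate block and leaving out each library.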

Additional observations from a re-analysis of the deposited data

How the results depend on the processing

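Over all genes 134 were higher and 50 lower. FPKM rescaled to a sum of 1000000 per library gave 153 higher and 23 lower, the most abundant transcript per gene 80 and 25, and single libraries left out 39 to 87 and 9 to 22. Of the 10 genes 2 were higher, against 1 without the filter on low values, 0 with the most abundant transcript and 0 to 1 with a library left out. HK2 kept its direction in every alternative run, and was 0.54 (adjusted p = 0.063) with the most abundant transcript and 0.51 to 0.59 with a library left out (0.065 to 0.17). PFKFB3 also kept it, at 0.90 without the filter (0.0503), 0.88 under quantile normalization (0.052), 1.24 with the most abundant transcript (0.50) and 0.79 to 1.04 with a library left out (0.040 to 0.15). Both passed with a pseudocount of 0.1, a minimum mean of 5 FPKM, rescaling and the correction for length and GC content. PGK1 passed under quantile normalization (0.33, adjusted p = 0.037). The cause was not tested for any of these.

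Uncalled genes changed sign. ALDOA was 0.019 after rescaling, 0.05 with the most abundant transcript and 0.12 after the length and GC correction, and ENO1 0.012 after rescaling, 0.090 under quantile normalization and 0.024 after that correction. BSG was 0.0093 after that correction, and PDP1 -1.97 with the most abundant transcript. With a library left out HK1 ran from -0.010 to 0.11, ENO1 from -0.58 to 0.42 and PKM from -0.38 to 0.028. The later-step median was 0.090 under quantile normalization, 0.05 with the most abundant transcript, 0.12 after the length and GC correction and -0.072 to 0.22 with a library left out. The difference in PKM2-type share ran from -6.06 to 5.55 percentage points, and it was not run with the most abundant transcript, where there is nothing to divide.

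With the replicate number as a block 17 genes were higher and 3 lower, and 0 of the 10 genes passed in limma. HK2 was 0.54 (adjusted p = 0.20), PFKFB3 0.90 (0.15) and ALKBH3 -1.24 (0.098). Over all genes the numbers did not pair the libraries: same-numbered correlations of deviations from the group means were -0.088, 0.075 and -0.012, and not every library correlated best with its own number. ENO1 and HK1-201 did split by number, as described above.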
